A study of Homo sapiens with 30 samples.

Results

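8 messenger RNAs that encode chaperones of the endoplasmic reticulum (ER) were followed through LARP6 iCLIP and the matching input RNA: HSPA5, HSP90B1, CALR, CANX, PDIA3, PDIA4, PDIA6 and HYOU1. They were taken by name as 8 of the 62750 gene identifiers in the input tables, and a peak was given to one of them when its centre lay in that gene on the same strand (GENCODE annotation, GRCh38). By this rule 79 of 14334 peaks fell in the 8 genes in the full-length LARP6 (FL) list, 90 of 17180 in the ΔNTR list and 69 of 15870 in the ΔCTR list. The ΔLa-module list held 6 of 636 and the ΔNTD list 2 of 291.

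Secretory and membrane proteins enter the ER as they are translated by ribosomes docked on its surface, and chaperones inside the ER fold them. HSPA5 (BiP) is the Hsp70 of the ER and HSP90B1 (GRP94) its Hsp90, HYOU1 is a large Hsp70-related protein that exchanges the nucleotide of HSPA5, CALR (calreticulin) and CANX (calnexin) hold newly made glycoproteins through their sugars, and PDIA3, PDIA4 and PDIA6 form and rearrange disulfide bonds. CANX is anchored in the ER membrane while the other members are soluble proteins of the ER lumen, and most of these genes are induced by the unfolded protein response when folding capacity is short.

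All samples were U-87 MG, an established human glioblastoma line that still carries its own LARP6 gene. Stable lines, made with a lentiviral vector and selected with puromycin, expressed a codon-optimised, myc-tagged LARP6 from a doxycycline-inducible promoter (60 ng/mL, 24 h): the whole protein (FL), or protein lacking the disordered N-terminal region (ΔNTR), the folded RNA-binding La-module (ΔLa-module), the N-terminal region together with the La-module (ΔNTD), or the C-terminal region (ΔCTR). Parental cells without the vector were the control, and their labels give the same doxycycline treatment (60 ng/mL, 24 h). iCLIP, which crosslinks a protein to RNA with ultraviolet light and sequences the RNA recovered with the protein, was run in 3 replicates per line. Each deposited list holds the peaks of the 3 replicates merged, with peaks of parental cells removed, and each line has 1 long-RNA library (paired 150 nt reads) of total RNA.

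The score of a peak is the authors' summed value over the replicates, with no scaling to sequencing depth, which is unknown here for iCLIP. Every iCLIP value is therefore a single pooled number with no spread between replicates, and no test was possible. Intervals are 95% counting intervals, and they leave out the variation between cultures. The long-RNA libraries held 25027075 to 28692476 counts in genes. In all 6 libraries the mesenchymal genes VIM, CD44 and FN1 were abundant (the lowest value was 2083 CPM, the count scaled to library size, for CD44), NES lay between 52.0 and 57.7 CPM, and GFAP, SOX2 and S100B, often used as glial or glioma markers, lay below 0.25 CPM. OLIG2, another such marker, lay between 1.46 and 2.54 CPM. Of genes of other cell types, PTPRC and RBFOX3 lay below 0.15 CPM. EPCAM lay between 1.48 and 2.47, PECAM1 between 0.978 and 2.43 and SYT1 between 7.34 and 9.89 CPM. Reads counted at LARP6 itself ranged from 51.6 to 75.0 CPM in the 6 lines, parental cells having 53.5, and the codon-optimised transgene need not align there.

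The RNA at the centre of the highest-scored single FL peak of each member is shown first. These peaks scored 33 in CANX, 29 in CALR, 13 in HYOU1 and 10 in PDIA3. They scored 9 in HSP90B1, 7 in PDIA4 and 6 in HSPA5. Each sequence is 30 nt of GRCh38, written 5′ to 3′ on the transcript strand, and lies within 1 exon. PDIA6 had a pair of FL peaks tied at a score of 4, of which the one nearer the 5′ end is shown. Capitals mark bases covered by a peak in the FL, ΔNTR and ΔCTR lists alike.
HSPA5, 3′UTR, chr9:125236454-125236483, minus strand: GAGTGGAGTTgaaactgctatagcctaagc
HSP90B1, CDS, chr12:103947340-103947369, plus strand: agagacagcagaagacacaacagaagacac
CALR, CDS, chr19:12939489-12939518, plus strand: caacaaaggccagacgCTGGTGGTGCAGTT
CANX, 3′UTR, chr5:179729292-179729321, plus strand: TGTTTGTTAGACcaGAAAGTGTGTGTGTTC
PDIA3, 3′UTR, chr15:43771351-43771380, plus strand: CTGTTAAATTTTCTCTAAACTGTTTCTTAG
PDIA4, 3′UTR, chr7:149003337-149003366, minus strand: attgcttcctgttgagcacaaagtgagagc
PDIA6, CDS, chr2:10802579-10802608, minus strand: aatggtctgtattcctctagtgATGAtgtg
HYOU1, CDS, chr11:119055185-119055214, minus strand: gaggcagactgtgcACTTTCAGATCAGCTC

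These 8 windows did not share a base composition. C and T together made up 66.7% of the PDIA3 window, which was covered over all 30 bases in the 3 lists, and 23.3% of the HSP90B1 window, an A-rich stretch near the end of the coding sequence that no ΔNTR peak overlapped. Over all 79 FL peaks of the members the 30 nt around the centre held 50.4% C and T, against 52.5% over the peaks of the whole FL list. Within the members the share was 55.3% at the 36 peaks in 3′UTRs and 45.5% at the 39 peaks in coding sequence. The complete mRNAs of the members ranged from 42.4% (HSP90B1) to 49.4% (CANX).

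All 8 members had a peak in the FL, ΔNTR and ΔCTR lists. Among genes with at least 1000 long-RNA counts, 63.1% of 5756 had an FL peak, 67.1% of 5373 a ΔNTR peak and 67.8% of 5631 a ΔCTR peak, and each of the 8 members passed that count. The summed score over the members was 464 in the FL list (Poisson, 423 to 508), 548 for ΔNTR (503 to 596) and 559 for ΔCTR (514 to 607), which was 0.451, 0.590 and 0.471% of the summed score of each list. The members took 0.565, 0.570 and 0.566% of the long-RNA counts of the same 3 lines. Their share of the ΔNTR score was thus above their share in FL and in ΔCTR, and the share in FL and ΔCTR was below their share of input.

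The signal was spread unevenly over the members, and the lectin chaperones held most of it. CANX had 24 FL peaks with a summed score of 178 (153 to 206), 28 ΔNTR peaks with 216 (188 to 247) and 26 ΔCTR peaks with 196 (170 to 225). CALR had 17 FL peaks with a summed score of 125 (104 to 149), 16 ΔNTR peaks with 123 (102 to 147) and 10 ΔCTR peaks with 153 (130 to 179). The intervals of the 3 lists overlapped for each of these genes. Summed scores of different lists are raw values, and the lists as a whole summed to 102788 (FL), 92958 (ΔNTR) and 118751 (ΔCTR).

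The Hsp90 and Hsp70 of the ER had less score at comparable read counts. HSP90B1 had a summed score of 41 with FL (29.4 to 55.6) and of 61 with either ΔNTR or ΔCTR (46.7 to 78.4). HSPA5 had 36 with FL (25.2 to 49.8), 21 with ΔNTR (upper bound 32.1) and 41 with ΔCTR (29.4 to 55.6). HYOU1, the partner of HSPA5, scored 25 (16.2 to 36.9), 27 (17.8 to 39.3) and 9 (4.12 to 17.1) in the same order of lists, the ΔCTR value being the lowest.

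Of the disulfide isomerases, PDIA6 had a summed score of 23 with FL (14.6 to 34.5), 55 with ΔNTR (41.4 to 71.6) and 39 with ΔCTR (27.7 to 53.3), and its FL and ΔNTR intervals did not overlap. PDIA3, which works with the lectin chaperones on glycoproteins, had 16 with FL (9.15 to 26.0), 27 with ΔNTR (17.8 to 39.3) and 51 with ΔCTR (38.0 to 67.1). Its FL and ΔCTR intervals did not overlap. PDIA4 had 20 with FL (12.2 to 30.9), 18 with ΔNTR (10.7 to 28.4) and 9 with ΔCTR (4.12 to 17.1).

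**Figure D1:**
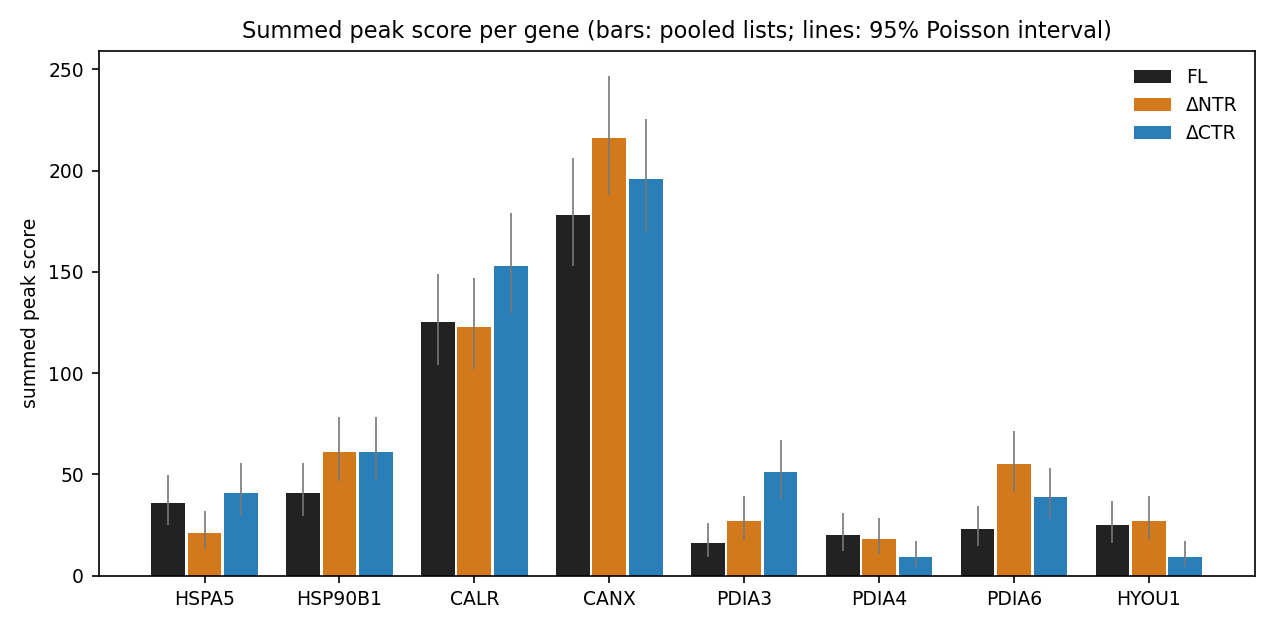
Summed peak score (vertical axis, no unit) of each of the 8 ER chaperone genes in the FL, ΔNTR and ΔCTR lists. Bars are single pooled values and lines are 95% Poisson intervals for counting error. CANX (178, 216 and 196) and CALR (125, 123 and 153) stand above the other 6 genes in every list.

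Deletion of the La-module left few peaks on these mRNAs. The ΔLa-module list held 2 peaks in HSP90B1, 2 in CALR, 1 in CANX and 1 in HSPA5, each with a score of 3 or 4. The ΔNTD list held 1 in HSP90B1 and 1 in HSPA5, each with a score of 3. These 8 peaks made up 0.905 and 0.601% of the summed scores of the 2 lists, so the members' share of what remained was not lower than in FL. Of the 8, 2 overlapped a member peak of the FL, ΔNTR or ΔCTR list, 1 in the CALR 3′UTR and 1 in the HSP90B1 coding sequence. The HSPA5 peaks of the ΔLa-module and ΔNTD lists shared 13 nt with each other, about 100 nt into the coding sequence, where none of the other 3 lists had a peak.

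CANX, the membrane-anchored member, carried most of its peaks in the 3′UTR. In FL, 22 of 24 CANX peaks lay there and held 95.5% of its score, and in ΔNTR and ΔCTR it was 20 of 28 (83.8% of the score) and 22 of 26 (85.7%). Per length, CANX had 7.33 FL peaks per kb in the 3′UTR and 1.13 per kb in the coding sequence. In the 7 lumenal members coding sequence came first: 37 of their 55 FL peaks (67.3%), 38 of 62 ΔNTR peaks (61.3%) and 28 of 43 ΔCTR peaks (65.1%) lay in it. Single members differed from this: the 3′UTR held more peaks than coding sequence in HSPA5 (5 against 3 in FL, 3 against 2 in ΔNTR), in HYOU1 in ΔNTR (5 against 1) and in PDIA3 in ΔCTR (3 against 2), and the counts were equal for HSPA5 in ΔCTR, PDIA3 in ΔNTR and PDIA4 in FL and ΔCTR. Per kb of the main transcript (the MANE Select or canonical transcript), peaks of the 7 numbered 2.76, 2.84 and 2.09 in coding sequence and 1.70, 2.61 and 1.83 in the 3′UTR, for FL, ΔNTR and ΔCTR. Score per kb was higher in coding sequence for FL (13.5 against 11.5). It was higher in the 3′UTR for ΔNTR (15.7 against 14.9) and ΔCTR (18.5 against 16.1). CALR alone held 14 of the 37 FL peaks in coding sequence. By share of score in FL, ΔNTR and ΔCTR, the 3′UTR came first in PDIA3 (62.5, 77.8 and 84.3%) and HSPA5 (58.3, 57.1 and 70.7%). It also came first in PDIA4 for FL and ΔCTR and in HYOU1 for ΔNTR. Coding sequence held most of the score of HSP90B1, CALR and PDIA6 in every list.

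Over the 8 members together, coding sequence held 49.4% of the peaks for FL (Wilson, 38.6 to 60.2%), 51.1% for ΔNTR (41.0 to 61.2%) and 46.4% for ΔCTR (35.1 to 58.0%). Over all peaks of these lists it held 36.5, 37.0 and 37.1%. The 3′UTR held 45.6, 44.4 and 52.2% of member peaks, against 47.7, 49.8 and 50.8% of all peaks. With exons of any annotated transcript placed before introns, no member peak lay in an intron, against 8.40, 6.44 and 6.62% of all peaks. By the main transcript alone, 3 FL and 2 ΔNTR member peaks lay outside its exons. Peaks of 1 mRNA are not independent, so these intervals are narrower than the true uncertainty. The split between coding sequence and 3′UTR rests on the transcripts used: when the 3′UTR of any annotated transcript took precedence, coding sequence held 30.4, 25.6 and 23.2% of member peaks. All CDS peaks of HSP90B1 moved in that case, because the annotation holds shorter transcripts of this gene whose 3′UTR covers its coding exons.

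**Figure D2:**
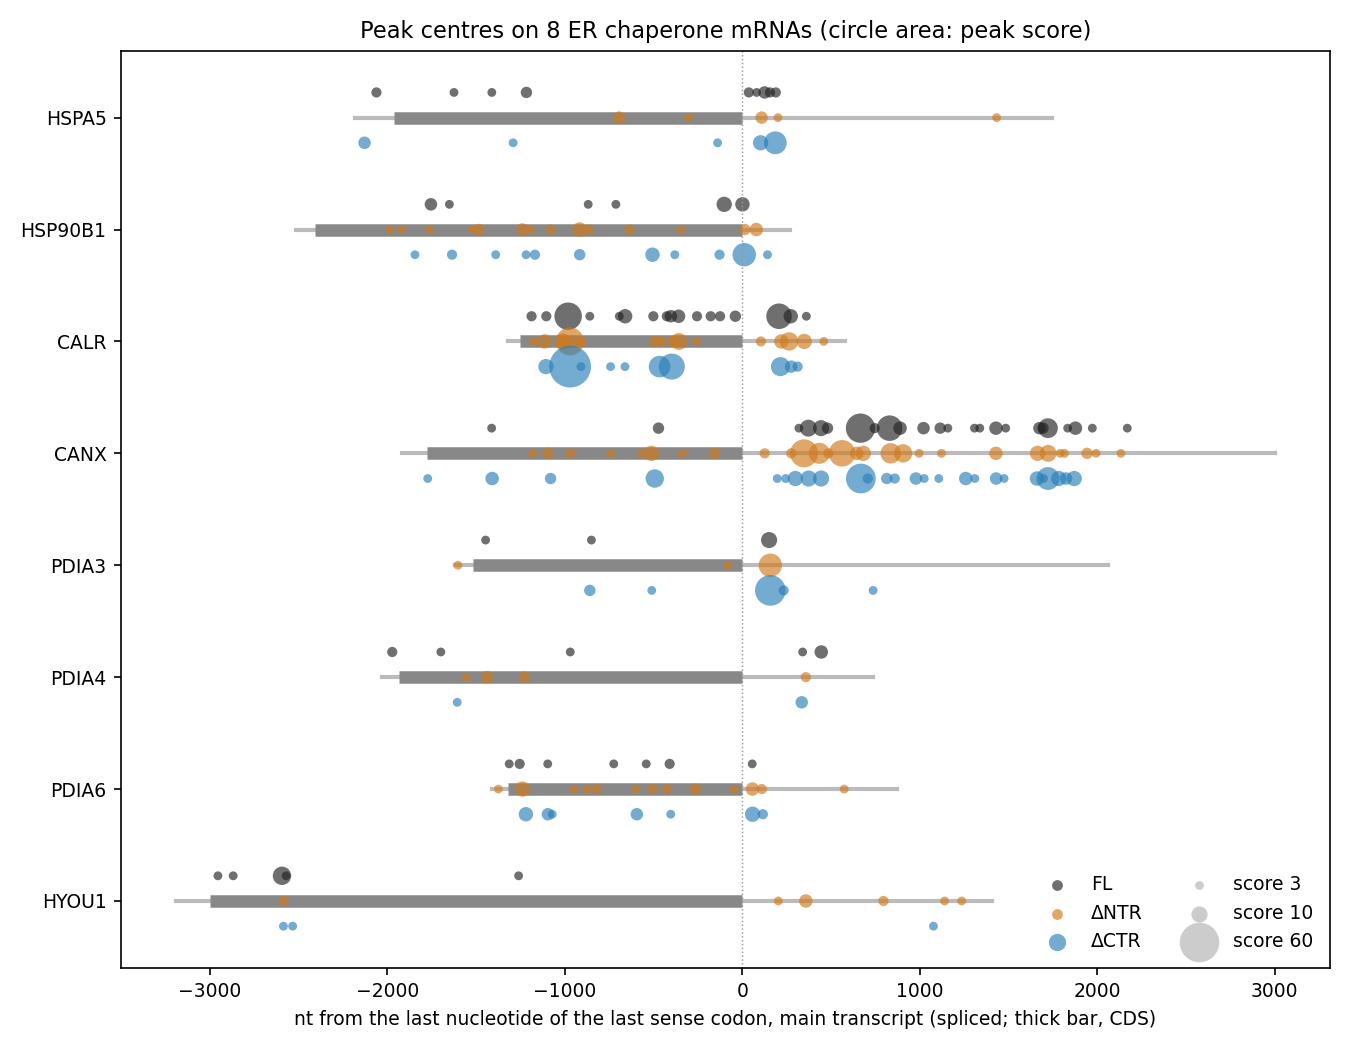
Centres of peaks along the main transcript of each member, as distance in nt from the last sense codon (negative, upstream), with the coding sequence as a thick bar and the UTRs as a thin line. Circles above, on and below the bar are FL, ΔNTR and ΔCTR peaks, and circle area is proportional to score. The 3 FL and 2 ΔNTR peaks outside the exons of these transcripts are not drawn. CANX peaks lie mostly in the first 2169 nt of its 3′UTR of 3000 nt, while those of HSP90B1, CALR and PDIA6 lie mostly in the coding sequence.

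Overlapping peaks of the 3 lists were joined into sites, to ask whether the variants left signal at the same places. The members held 138 such sites, of which 24 had a peak in all 3 lists, 21 in a pair of lists and 93 in 1 list only (17.4, 15.2 and 67.4%). Over all peaks of the 3 lists, 9.78% of 34120 sites had a peak in all 3, 13.4% in a pair and 76.8% in 1. The position given for a site is that of its highest-scored peak, and scores of different lists at a site are raw values. The 24 common sites held 65.1% of the members' FL score. CANX had 10 of its 33 sites in all 3 lists, CALR 5 of 20 and PDIA6 3 of 18, and HSPA5 had 2 of 13. HSP90B1, PDIA3, PDIA4 and HYOU1 had 1 each. Of the 24, 16 lay in a 3′UTR and 8 in coding sequence.

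The site with the highest mean score lay in the coding sequence of CALR (chr19:12939447-12939525, plus strand), 281 nt after the start codon. Its score was 29 with FL, 40 with ΔNTR and 67 with ΔCTR. A second CALR site in coding sequence (chr19:12940732-12940839) scored 17, 16 and 26, and the common site in the CALR 3′UTR (chr19:12944092-12944203) scored 33, 21 and 20. ΔCTR was thus the highest list at the first pair of these sites and the lowest at the third, within the same mRNA.

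In CANX, 9 of the 10 common sites lay in the 3′UTR, between 348 and 1783 nt after the last codon. Together they summed to 148 with FL, 139 with ΔNTR and 149 with ΔCTR, but single sites ranked the lists differently. The site at chr5:179728908-179729134 (plus strand) had 55 with ΔNTR and 29 with both FL and ΔCTR. The next, at chr5:179729268-179729357, which includes the CANX sequence shown above, scored 33, 16 and 38. The third, at chr5:179729432-179729569, scored 32, 29 and 9. A peak of 100 nt between the first and the second (chr5:179729153-179729252) scored 27 in ΔNTR and had no counterpart in FL or ΔCTR, and it was the only site of the members with a score of 10 or more in a single list.

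For PDIA3, HSP90B1, HSPA5 and HYOU1 the site with the highest mean score over the 3 lists is given. In PDIA3 it lay in the 3′UTR, 158 nt after the last codon (chr15:43771349-43771395, plus strand), and its score was 10 with FL, 21 with ΔNTR and 36 with ΔCTR. In HSP90B1 it lay at the stop codon, centred 11 nt after the last sense codon (chr12:103947647-103947692, plus strand), with scores of 8, 5 and 21. In HSPA5 it lay 186 nt after the last codon (chr9:125236383-125236447, minus strand), with scores of 8, 3 and 20. A second HSPA5 site (chr9:125236452-125236537), which includes the HSPA5 sequence shown above, scored 9, 6 and 9, higher in FL and ΔNTR than the first. ΔCTR was the highest list at the PDIA3 and HSP90B1 sites and at the first HSPA5 site. The mean that ranked the sites includes ΔCTR. In HYOU1 the site lay in coding sequence, 404 nt after the start codon (chr11:119055180-119055220, minus strand). Here FL was the highest, with 13 against 4 in ΔNTR and 3 in ΔCTR. The common sites of PDIA6 scored 4, 9 and 8, then 3, 7 and 9, then 4, 4 and 3. That of PDIA4 scored 3, 4 and 6.

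**Figure D3:**
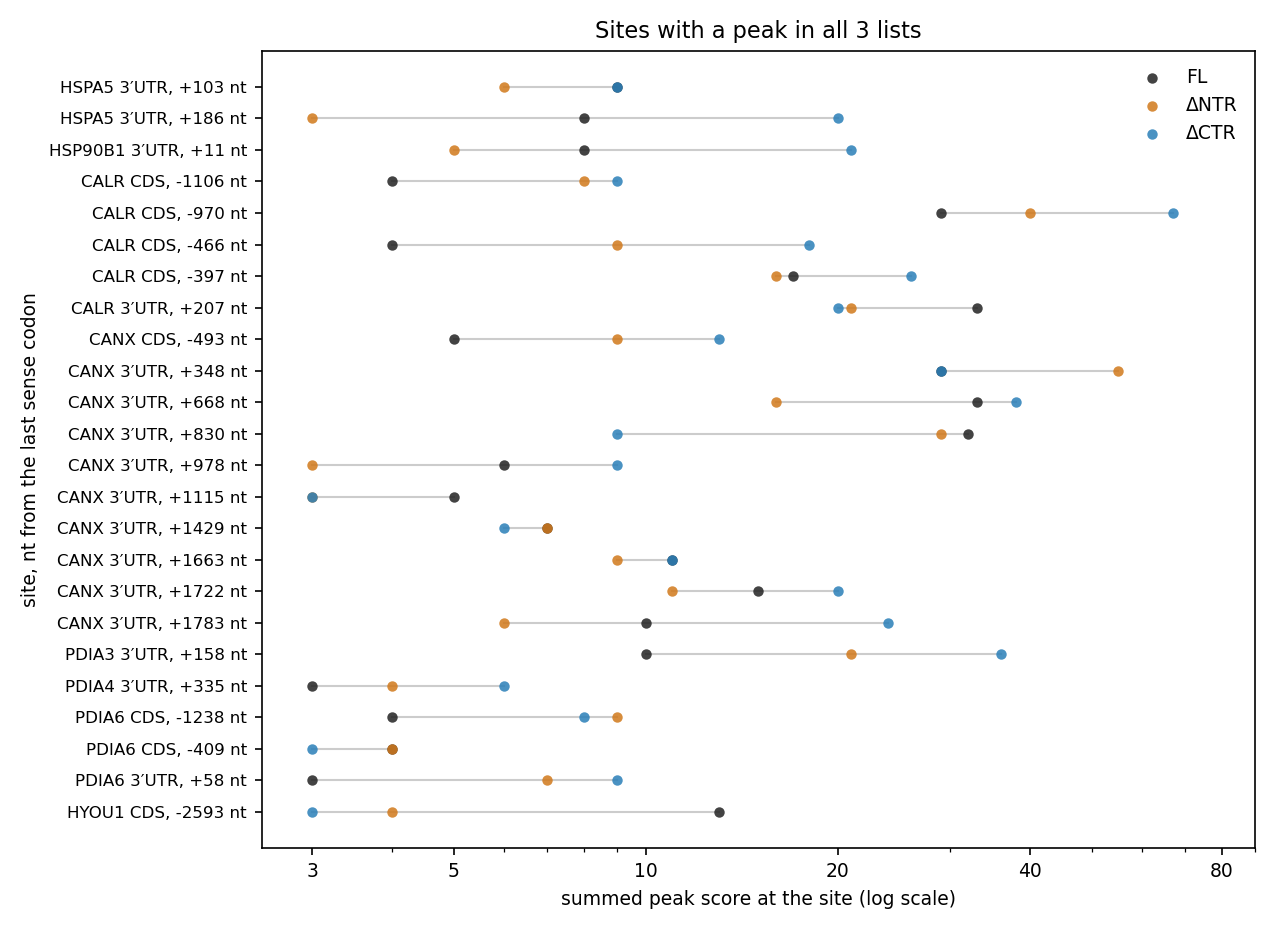
Summed score of each list (horizontal axis, log scale) at the 24 sites of the members that had a peak in all 3 lists, named by gene, region and distance from the last sense codon. Points of equal score lie on top of each other. ΔCTR alone has the highest raw score at 14 of the 24 sites (58.3%), FL at 4 and ΔNTR at 2, where over all 3338 sites of this kind the shares are 43.1, 30.5 and 17.0%.

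A ΔNTR peak overlapped 48.1% of the members' 79 FL peaks (Wilson, 37.4 to 58.9%) and a ΔCTR peak 51.9% (41.1 to 62.6%), against 35.3 and 37.9% of all FL peaks. Neither list overlapped 36.7% of the members' FL peaks, against 51.6% of all. Overlap rose with score in both sets. At a score of 3, 25.7% of 35 member peaks were overlapped by ΔNTR, against 17.0% of all such peaks. At scores of 4 to 9 it was 57.1% of 35 member peaks, against 43.5%, and both lists overlapped all 9 member peaks with a score of 10 or more, where the shares over all such FL peaks were 88.2% (ΔNTR) and 93.2% (ΔCTR). When 50% of both peaks had to overlap, the shares were 30.4% of member FL peaks for ΔNTR, against 23.9% of all, and 26.6% for ΔCTR, against 26.8% of all, so the members' higher share for ΔCTR was not seen under that rule.

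At the places that FL and ΔNTR shared, the members had a higher score ratio than the list as a whole. The 38 overlapped FL peaks had a summed score of 308 and the overlapping ΔNTR peaks 315, a ratio of 1.02 (exact binomial, 0.871 to 1.20), while the ratio over all shared peaks was 0.720 (0.711 to 0.728). Where the FL peak scored 10 or more, the ratio was 0.953 for 9 member peaks and 0.595 for 1701 peaks of the list. For ΔCTR, the 41 overlapped peaks summed to 326 in FL and 425 in ΔCTR, a ratio of 1.30 (1.13 to 1.51), against 1.12 (1.11 to 1.13) over all shared peaks. Since the scores are not scaled to depth, the members' ratio is to be read beside that of the list.

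Member peaks were also wider than those of the lists as a whole. Their median width was 27 nt in FL, 29 nt in ΔNTR and 28 nt in ΔCTR, against 22, 23 and 23 nt. Peaks of 50 nt or more made up 6.33, 11.1 and 15.9% of member peaks, against 5.01, 4.82 and 5.23% of all peaks.

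Score was next set against the amount of each mRNA, as the summed score per 1000 long-RNA counts of the same line. In FL, HYOU1 had the highest value of the members, 6.58 (4.26 to 9.71), followed by CANX with 5.48 (4.70 to 6.35), CALR with 3.58 (2.98 to 4.27) and PDIA6 with 2.83 (1.79 to 4.24). PDIA4 (1.55), HSP90B1 (1.48), PDIA3 (1.44) and HSPA5 (1.35) lay near the median of 1.44 over the 5756 genes with at least 1000 counts. Of those genes, 12.5% had a higher value than HYOU1, 15.7% a higher value than CANX and 51.5% a higher value than HSPA5. The intervals of HYOU1 and CANX overlapped, as did those of the 4 lowest members, and CANX lay above CALR with no overlap.

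In ΔNTR, HYOU1 (7.88), CANX (7.83) and PDIA6 (7.39) led, and 9.88, 9.98 and 11.1% of 5373 genes had higher values. HSPA5 was the lowest member with 0.832 (0.515 to 1.27), and 64.2% of genes were above it. In ΔCTR, CANX led with 6.27, followed by PDIA6 (4.90), PDIA3 (4.89) and CALR (4.63), and PDIA4 was the lowest with 0.717 (0.328 to 1.36). Pooled over the 8 members the values were 2.94, 3.84 and 3.66 in FL, ΔNTR and ΔCTR, against 3.66, 3.83 and 4.45 pooled over all genes with at least 1000 counts.

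**Figure D4:**
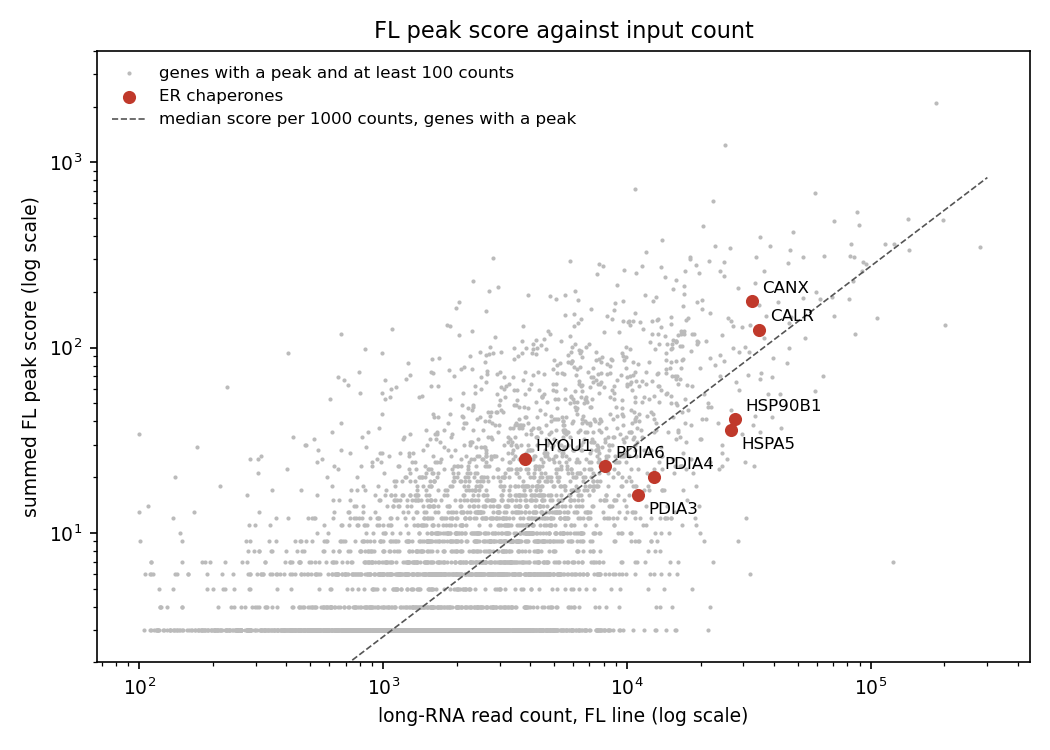
Summed FL peak score against the long-RNA read count of the FL line, both on log axes, for genes with a peak and at least 100 counts (grey) and the 8 members (red). The dashed line is the median of 2.76 score units per 1000 counts over genes with a peak and at least 1000 counts. HYOU1, CANX, CALR and PDIA6 lie above it, and HSPA5, HSP90B1, PDIA3 and PDIA4 below.

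The share of list score was compared between each mutant and FL after the input change had been taken off, over genes whose FL and mutant scores added up to 50 or more, and 2-fold was the limit for a call. In ΔNTR, 6 members reached that score. PDIA6 was the 1 past the limit, with a log2 change of 1.33 (counting interval, 0.64 to 2.13). Its change rests on weak peaks: 6 of 13 in ΔNTR and 5 of 7 in FL had the lowest score of 3, and none reached 10. Places that scored below 3 are absent from the lists, and the counting interval does not allow for this. Over the 784 genes compared, 7.65% were at least 2-fold higher and 12.8% at least 2-fold lower. HSP90B1 (0.70, interval 0.12 to 1.32) and CANX (0.49, 0.20 to 0.79) had intervals above 0, CALR was at 0.07 and HSPA5 at −0.70 (−1.57 to 0.09).

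In ΔCTR, 6 members reached a summed score of 50 and PDIA3 was the 1 past 2-fold, with 1.44 (0.67 to 2.41), against 5.53% of 886 genes higher and 5.53% lower. CANX was at −0.07 and CALR at 0.11. HYOU1 and PDIA4 did not reach a score of 50. At a limit of 20, HYOU1 had −1.49 (−2.87 to −0.44) and PDIA4 −1.29 (−2.69 to −0.17), where 10.2% of 1881 genes were at least 2-fold lower. Both values rest on ΔCTR scores of 9.

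The long-RNA libraries were used to ask whether the level of these mRNAs moved with the LARP6 variants. Levels were compared between genes as CPM per kb of all annotated exons. CALR was the most abundant member by this measure, between 429 and 478 CPM per kb in the 6 lines, followed by HSPA5 (141 to 155) and PDIA4 (136 to 150), whose ranges overlapped. CANX (80.2 to 89.1) lay above HSP90B1 (65.4 to 77.2) and PDIA6 (70.7 to 75.8), and the last pair overlapped. PDIA3 (32.7 to 35.1) and HYOU1 (18.3 to 20.1) were the lowest. By the length of the main transcript HSP90B1 moved from rank 5 to rank 2, HSPA5 from 2 to 3 and PDIA4 from 3 to 5. All annotated exons of HSP90B1 together span 13.1 kb and its main transcript 2.78 kb.

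None of the 8 members was 2-fold higher or lower than in parental cells in any of the 5 lines. Over the 14057 genes with a mean of at least 1 CPM, the share past 2-fold either way was 0.0569% (FL), 0.754% (ΔNTR), 0.0783% (ΔCTR), 0.413% (ΔLa-module) and 0.334% (ΔNTD). All changes of members, on the log2(CPM + 1) scale, lay between −0.16 and 0.24. The 5 comparisons share the 1 parental library, and with 1 library per line there was no replicate check. In bulk RNA, fewer cells that hold a transcript and less of it per cell cannot be told apart.

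HSP90B1 was at 857 CPM in parental cells, and the lines had 988 (FL), 993 (ΔNTR), 1006 (ΔCTR), 966 (ΔLa-module) and 1011 CPM (ΔNTD). Parental cells were thus below all 5 lines, with log2 differences of 0.17 to 0.24 and counting intervals that left out 0. Among the 2403 genes with a mean of at least 100 CPM, between 9.86% (FL) and 24.2% (ΔLa-module) differed from parental cells by at least as much. CALR was at 1338 CPM in parental cells and between 1201 and 1284 in the 5 lines (log2 differences of −0.06 to −0.16), and PDIA4 at 495 and between 449 and 479 (−0.04 to −0.14). Parental cells were the highest of the 6 libraries for both genes, but between 28.2 and 74.5% of the 2403 genes differed by at least as much as CALR, and between 32.0 and 80.9% by at least as much as PDIA4.

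The other members did not hold 1 direction. HSPA5, the usual marker of ER stress, was at 948 CPM in parental cells, and the lines had 949 (FL), 1011 (ΔNTR), 985 (ΔCTR), 922 (ΔLa-module) and 963 CPM (ΔNTD), with ΔNTR the highest and ΔLa-module the lowest. CANX ranged from 1104 (ΔNTR) to 1226 CPM (ΔNTD), PDIA3 from 385 to 414, PDIA6 from 290 to 310 and HYOU1 from 125 to 137. The parental value lay within the range of the 5 lines for these genes, and also for HSPA5.

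**Figure D5:**
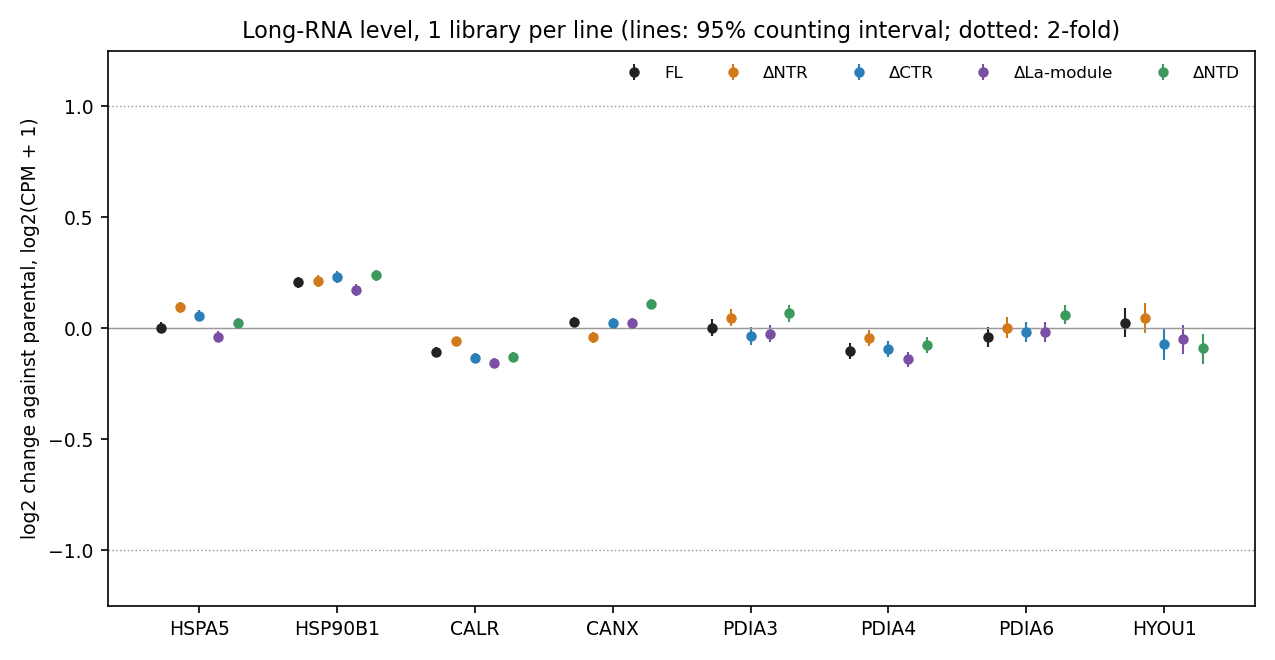
Change of each member against parental cells on the log2(CPM + 1) scale in the 5 lines, with 95% counting intervals. Each point is 1 library, and all 5 share the parental library. All points lie between −0.16 and 0.24, inside the dotted lines at 2-fold; HSP90B1 is above 0 and CALR and PDIA4 are below 0 in 5 of 5 lines.

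Other genes of the same pathways were read from lists, which were chosen with earlier results of these data known. Counts of list genes past a limit therefore cannot test whether a pathway was enriched. Among 18 tested factors and targets of the unfolded protein response, 3 were at least 2-fold higher in ΔNTR (0.704% of all genes tested were), and none passed that limit in the other 4 lines. They were TRIB3, a pseudokinase induced by ATF4, with 47 counts in parental cells and 134 in ΔNTR (log2 difference 1.21), CHAC1, a glutathione-degrading enzyme also induced by ATF4, with 24 and 73 counts (1.05), and VLDLR, a lipoprotein receptor, with 1189 and 2443 counts (1.12). The median of the list in ΔNTR was 0.12, against −0.01 over all genes. The same 3 genes were higher, short of 2-fold on this scale, in ΔLa-module and ΔNTD. VLDLR was higher by 0.92 and 0.91, CHAC1 by 0.76 and 0.80, and TRIB3 by 0.59 and 0.54. In FL and ΔCTR they also lay above parental cells. There VLDLR was higher by 0.44 and 0.46, TRIB3 by 0.48 and 0.38, and CHAC1 by 0.08 and 0.41. All these differences share the 1 parental library. The pseudocount lowers the differences of CHAC1, which was at 0.895 CPM in parental cells, 2.20 in ΔLa-module and 2.29 in ΔNTD. The median of the 8 chaperones in ΔNTR was 0.02.

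The other ER folding genes are a list of folding enzymes and related proteins of the secretory pathway outside the members. None of the 25 tested passed 2-fold in any line. Nor did any of 17 translocon and signal peptidase genes, or of 13 heat shock proteins of cytosol and mitochondria. The largest difference in the first list was ERO1A, the oxidase that recharges protein disulfide isomerases, with 0.80 in ΔNTR, 0.64 in ΔNTD and 0.59 in ΔLa-module. ERO1A was at 0.37 in ΔCTR and 0.31 in FL. In the translocon list the largest difference was SEC61G, with 0.61 in ΔNTR, against 0.31 to 0.52 in the other lines.

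In the FL peaks, the members had less score for their counts than the other ER folding genes and the translocon genes. They had more than the unfolded protein response genes and the heat shock proteins. In ΔNTR and ΔCTR they lay below the unfolded protein response genes, at 3.84 and 3.66 per 1000 counts against 4.05 and 5.18. Per 1000 counts, the members had 2.94 in FL, the other ER folding genes 6.49 and the translocon and signal peptidase genes 6.71. The unfolded protein response genes had 2.34 and the heat shock proteins of cytosol and mitochondria 1.52. An FL peak was present in 19 of 26, 12 of 17, 7 of 20 and 10 of 14 genes of the last 4 lists. Among their genes with at least 1000 counts it was 17 of 18, 12 of 15, 6 of 11 and 10 of 11, against 63.1% of all such genes. CALU, a calcium-binding protein of the secretory pathway, and MLEC, a lectin of the ER, led the other ER folding genes. Neither is an enzyme, and their summed FL scores were 307 and 232 of the 1107 of that list. SSR1 (202) and SSR3 (123), subunits of the complex that assists the translocon, led the translocon genes.

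SEL1L (26), of the ER degradation machinery, and PPP1R15A (20), which reverses the phosphorylation of eIF2α, led the unfolded protein response genes. HSP90AA1 (259) and HSPA8 (70), the cytosolic relatives of HSP90B1 and HSPA5, led the heat shock proteins. Coding sequence held 66.7% of the FL peaks of that list and 31.9% of those of the other ER folding genes. The members, at 49.4%, lay between them.

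The genes whose level followed the mean of the 8 members most closely over the 6 long-RNA libraries, among 4558 genes with at least 50 CPM, were SNAP25 (Pearson r = 0.91), PSMA7 (0.90), RBM12 (0.90), ENAH (0.89) and IP6K1 (0.89). The mean profile of the members moved only between −0.03 and 0.03 on the log2 scale, so these values describe small differences between 6 libraries of different lines.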

How the data were processed

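The authors trimmed the iCLIP reads, removed rRNA and tRNA reads with Bowtie2, aligned the rest with STAR to GRCh38.p13 (GENCODE release 42), removed duplicates with UMI-tools and called peaks with Clippy in each replicate. They merged the 3 replicates, summed the peak scores and subtracted parental peaks with bedtools 2.30.0. The deposited score is this sum, a whole number of at least 3. The deposited long-RNA counts are gene counts that the authors made with STAR 2.7.10b on the same build, of which the column for the reverse strand was used. The 6 small-RNA libraries were not used, and 0 other columns of per-sample values were left out. Rows that name no gene (reads unmapped, multimapped, without a feature or ambiguous) stayed out of library sizes, and reads in genes were 62.2 to 65.6% of all.

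Samples were grouped by the labels. The members and lists were chosen with earlier results of these data known. Regions came from GENCODE release 44 in the order CDS, 5′UTR, 3′UTR, noncoding exon, intron over all transcripts, with the stop codon in the 3′UTR. Sites are chains of peaks overlapping by at least 1 nt on a strand. Of 62750 gene identifiers, 62672 matched the annotation without regard to version. Counts were scaled by TMM (edgeR 4.0.16, R 4.3.3) and compared as log2(CPM + 1), with a mean of at least 1 CPM as filter, which understates changes of low genes. The change of score share used a pseudocount of 1. Poisson, exact binomial and Wilson intervals were computed with SciPy 1.17.1 and cover counting error only, since reads and peaks are not independent molecules. The comparison of counts was tested on simulated data (FL against parental, 14027 genes), where 100% of 200 genes changed 4-fold were recovered, with 0 false calls. Both simulated libraries held counting error alone, and the changed genes averaged at least 100 counts, so recovery was nearly certain. The simulation does not cover genes of low count, changes near 2-fold or variation between cultures. Named genes were the members, list genes past 2-fold in a line, the 2 genes of each list with the highest FL score, and the 5 genes most like the members. ERO1A and SEC61G were named after their values were seen. HSP90B1, CALR, CANX, PDIA3, PDIA6 and HYOU1 overlap other annotated genes, and a small RNA gene or pseudogene lies on the same strand inside HSP90B1, CALR, CANX and PDIA6. The unstranded counts leave out reads that overlap a gene on either strand, which lowers PDIA6 and HSP90B1.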

Additional observations from a re-analysis of the deposited data

How the results depend on the processing

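Each list pools its replicates and each line has 1 long-RNA library, so no result has a spread between cultures, and the depth of the iCLIP libraries limits what scores can show. No paired analysis was possible because replicates were pooled in each peak list, and the labels tie no input library to an iCLIP replicate. Of 451 recomputed values for 121 results, 397 stayed within the limits set for them, 54 moved and 0 reversed, and the causes were not tested unless the setting itself gives them. With peaks above a score of 3 alone, the members had 44, 54, 43, 3 and 0 peaks in FL, ΔNTR, ΔCTR, ΔLa-module and ΔNTD. With the 3′UTR before the CDS, the CDS held 30.4, 25.6 and 23.2% of member peaks and the 3′UTR 64.6, 70.0 and 75.4%, in FL, ΔNTR and ΔCTR. With 50% of both peaks overlapping, 30.4% (ΔNTR) and 26.6% (ΔCTR) of member FL peaks were shared, and the ΔNTR score ratio was 0.871. Score per 1000 counts was 3.23, 4.18 and 4.02 with unstranded counts and 2.28, 3.08 and 3.15 with scores above 3.

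With a summed score of at least 20, genes past 2-fold in score share numbered 245 higher and 272 lower in ΔNTR, and 217 higher and 191 lower in ΔCTR, and 2 members (PDIA4 and HYOU1) were lower in ΔCTR. Main transcript length put HSPA5 at rank 3, HSP90B1 at rank 2 and PDIA4 at rank 5. With a pseudocount of 5 CPM, genes past 2-fold higher numbered 1 (FL), 46 (ΔNTR), 2 (ΔCTR), 20 (ΔLa-module) and 15 (ΔNTD), and lower ones 0, 0, 5 and 2 in ΔNTR, ΔCTR, ΔLa-module and ΔNTD. At 1.5-fold they numbered 79, 519, 121, 281 and 198 higher and 58, 166, 75, 123 and 188 lower, in the order FL, ΔNTR, ΔCTR, ΔLa-module and ΔNTD. No member was past 1.5-fold in any line. At 1.5-fold the unfolded protein response list had 3 genes in ΔLa-module and 2 in ΔNTD, the ER folding list 1 each in ΔNTR, ΔLa-module and ΔNTD, and the translocon list 1 in ΔNTR. The other value that moved was CALR in ΔNTD, at −0.09 with unstranded counts.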
